A study of Homo sapiens with 2 samples.

Results

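Peaks of the histone demethylase KDM1B inside very long protein-coding genes are described here. A gene counted as very long when its annotated span was 500 kb or more on chromosomes 1 to 22 or X, and a peak counted when it was narrower than 5 kb and its midpoint lay inside such a gene, more than 1 kb from both ends. By this rule 1287 of the 78536 listed peaks were members, 1.64% (95% exact Clopper-Pearson interval 1.55 to 1.73%). They lay in 218 of the 314 very long genes, and the other 96, called empty below, held none. Because the gene spans overlap in places, 5 members lay in more than 1 very long gene.

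The study mapped KDM1B over the genome by chromatin immunoprecipitation and sequencing (ChIP-seq) in MDA-MB-231 cells, a long-established line from a triple-negative breast tumour. Both groups, the anti-FLAG ChIP and the input, came from cells of this line carrying the retroviral vector pOZ, which gives stable expression of KDM1B tagged with 3 FLAG copies, so the tagged protein was present in addition to whatever KDM1B the cells make themselves. Each group held 1 library, which leaves the values without any replicate error, and intervals cover counting error only. The deposited list gives for each peak a position and the authors' log2 ratio of ChIP over input, without read counts, so the depth is unknown, and a gene without a listed peak is not shown to be free of KDM1B.

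KDM1B, also called LSD2, is a flavin-dependent enzyme that removes mono- and dimethyl marks from lysine 4 of histone H3, and it has been found along the bodies of genes that are being transcribed, together with elongating RNA polymerase II. Very long genes consist almost wholly of intron. Many of them encode adhesion molecules, receptors and channels of neurons, several overlap common fragile sites, where chromosomes break under replication stress, and some are active in most cell types. Whether a gene was transcribed in these cells was not measured here.

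Promoter sequences show how unlike or alike the starts of very long genes are where the bodies differ in peaks. For each gene below the 250 bases before its start are printed 5′ to 3′ (RefSeq, GRCh38.p14), with every CpG in capitals. The first 3 belong to genes with many inner peaks and a listed peak over all or part of the printed window. The last 3 are among the longest genes without any inner peak.
PRKCA: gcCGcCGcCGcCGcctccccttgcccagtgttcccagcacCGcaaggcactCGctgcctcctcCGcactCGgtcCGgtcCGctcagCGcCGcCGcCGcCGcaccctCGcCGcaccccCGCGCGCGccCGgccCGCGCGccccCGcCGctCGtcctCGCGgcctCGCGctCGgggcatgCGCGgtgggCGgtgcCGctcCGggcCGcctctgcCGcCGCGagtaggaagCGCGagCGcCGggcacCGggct
UTRN: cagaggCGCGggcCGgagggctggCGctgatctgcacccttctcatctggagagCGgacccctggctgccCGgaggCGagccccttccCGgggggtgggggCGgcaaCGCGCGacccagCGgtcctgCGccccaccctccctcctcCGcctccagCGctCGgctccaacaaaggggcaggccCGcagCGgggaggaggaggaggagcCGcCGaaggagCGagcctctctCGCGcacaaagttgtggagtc
SMYD3: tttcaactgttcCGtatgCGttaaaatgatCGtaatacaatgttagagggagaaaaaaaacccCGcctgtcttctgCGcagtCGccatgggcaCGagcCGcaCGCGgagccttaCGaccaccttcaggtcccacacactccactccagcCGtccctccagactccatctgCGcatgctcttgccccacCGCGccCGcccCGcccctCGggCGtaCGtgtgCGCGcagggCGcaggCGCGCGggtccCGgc
PTPRD: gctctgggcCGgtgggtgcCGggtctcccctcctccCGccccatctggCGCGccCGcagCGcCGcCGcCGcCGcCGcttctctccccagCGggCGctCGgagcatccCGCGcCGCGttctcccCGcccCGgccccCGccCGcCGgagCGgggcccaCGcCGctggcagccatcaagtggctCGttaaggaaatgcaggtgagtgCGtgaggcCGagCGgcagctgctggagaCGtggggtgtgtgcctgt
DMD: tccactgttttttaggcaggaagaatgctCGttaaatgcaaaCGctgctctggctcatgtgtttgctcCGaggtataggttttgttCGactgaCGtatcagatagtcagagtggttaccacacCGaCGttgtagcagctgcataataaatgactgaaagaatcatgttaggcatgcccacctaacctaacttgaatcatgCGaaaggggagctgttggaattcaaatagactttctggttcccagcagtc
MACROD2: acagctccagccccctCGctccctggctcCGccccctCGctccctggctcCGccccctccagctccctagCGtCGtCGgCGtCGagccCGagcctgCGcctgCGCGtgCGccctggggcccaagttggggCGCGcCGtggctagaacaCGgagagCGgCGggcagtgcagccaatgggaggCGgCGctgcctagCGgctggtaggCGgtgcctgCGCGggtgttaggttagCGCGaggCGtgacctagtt
The window of PRKCA (chr17:66302363-66302612, plus strand) held 47 CpGs and lay under a peak with a log2 ratio of 2.41. That of UTRN (chr6:144285085-144285334, plus strand) held 24 under a peak of 2.39. That of SMYD3 (chr1:246507280-246507529, minus strand) held 27 and was only partly covered, by a peak of 2.64 that ended inside it at 246507372. The windows without a peak held 32 CpGs at PTPRD (chr9:10613003-10613252, minus strand), 8 at DMD (chrX:33339389-33339638, minus strand) and 29 at MACROD2 (chr20:13995266-13995515, plus strand). CpG-rich starts were thus present in both sets, and among the 6 sequences the promoter of DMD had the fewest CpGs. The 6 do not stand for their groups. Of 30 genes with many inner peaks (dense, defined below) and a known strand, 10 had a peak within 1 kb of the promoter start (33.3%, 17.3 to 52.8%). It was 7 of 75 empty genes (9.33%, 3.84 to 18.3%) and 53 of all 262 very long genes with strand (20.2%, 15.5 to 25.6%). The median in 300-base promoter windows was 11.5 CpGs in the 30 dense genes and 19 in the 75 empty genes.

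Peaks were sparse in very long genes. Counted per gene, the 314 genes held 4.94 inner peaks per Mb (exact Poisson 95% interval 4.68 to 5.22), against 16.9 (16.5 to 17.4) in coding genes of 200 to 500 kb, 47.3 (46.5 to 48.1) in those of 100 to 200 kb, 76.4 (75.2 to 77.7) in those of 50 to 100 kb and 113.2 (111.7 to 114.8) in those of 10 to 50 kb. From 10 to 50 kb upwards the density was lower in every longer class, with intervals that did not overlap, and genes of 10 to 50 kb had 22.9 times the density of the very long ones. Genes under 10 kb, of which little lies over 1 kb from both ends, stood at 112.6 (107.5 to 117.9), an interval that overlapped that of the class above. Within the very long genes it was 6.06 per Mb from 500 kb to 1 Mb and 3.01 from 1 Mb upwards. Members covered 0.387% of the inner gene sequence. The order of the 5 classes from 10 kb was the same in the 7 alternatives that could change it, among them the list with peaks in or near other genes left out, where very long genes had 3.95 peaks per Mb and genes of 10 to 50 kb 97.5.

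The share of genes without any inner peak did not follow this order. It was 30.6% (25.5 to 36.0%) of the very long genes and 32.9% (30.1 to 35.8%) at 200 to 500 kb. At 100 to 200 kb it was 28.5% (26.5 to 30.6%) and at 50 to 100 kb 30.0% (28.3 to 31.7%). Shorter genes stood higher, at 40.7% (39.6 to 41.8%) from 10 to 50 kb and 73.6% (72.3 to 74.9%) under 10 kb. Over all coding genes longer than 2 kb, 55.1% held at least 1 inner peak narrower than 5 kb, against 69.4% of the very long genes, which offer far more sequence each. Among the 69 genes of 1 Mb or more, 21 held none.

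**Figure D1:**
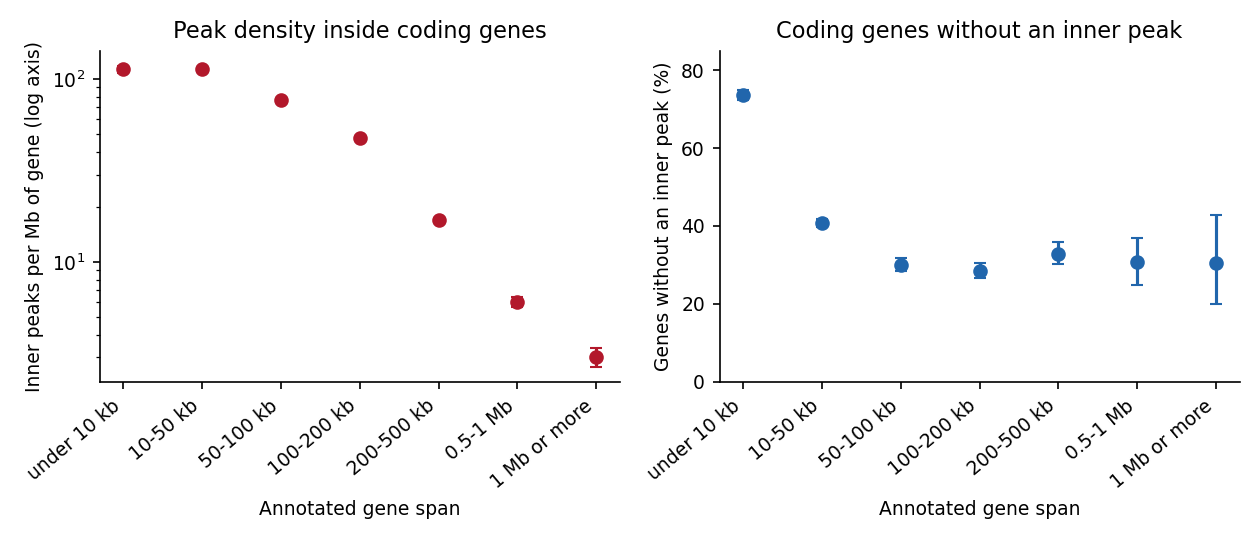
Left, inner peaks per Mb of gene (log axis, exact Poisson 95% intervals, smaller than the points where not visible) and right, the share of coding genes without an inner peak (percent, Clopper-Pearson 95% intervals), both by annotated gene span. Density goes down from 113.2 per Mb at 10 to 50 kb to 3.01 at 1 Mb or more, with 112.6 under 10 kb, while the share of genes without a peak is 73.6% under 10 kb and between 28.5% and 40.7% in the longer classes.

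Members were concentrated in few genes. A very long gene was called dense when it was among the 78 with most members per Mb and held 10 members or more. The 36 dense genes (11.5% of the very long genes) held 803 members, 62.4% of all, and the 10 densest held 418. Another 182 genes held 1 to 9 members each, 74 of the 314 exactly 1. The median over all 314 genes was 1 member and 1.73 per Mb, and the highest count was 67. That median lay below the pooled 4.94 per Mb, and shorter classes showed such a gap too. Their medians were 4.66 against a pooled 16.9 at 200 to 500 kb and 14.8 against 47.3 at 100 to 200 kb. These groups were formed from the peaks themselves, so their peak counts are a description. With only the stronger part of the list (log2 ratio at or above its median) 15 genes were dense.

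**Figure D2:**
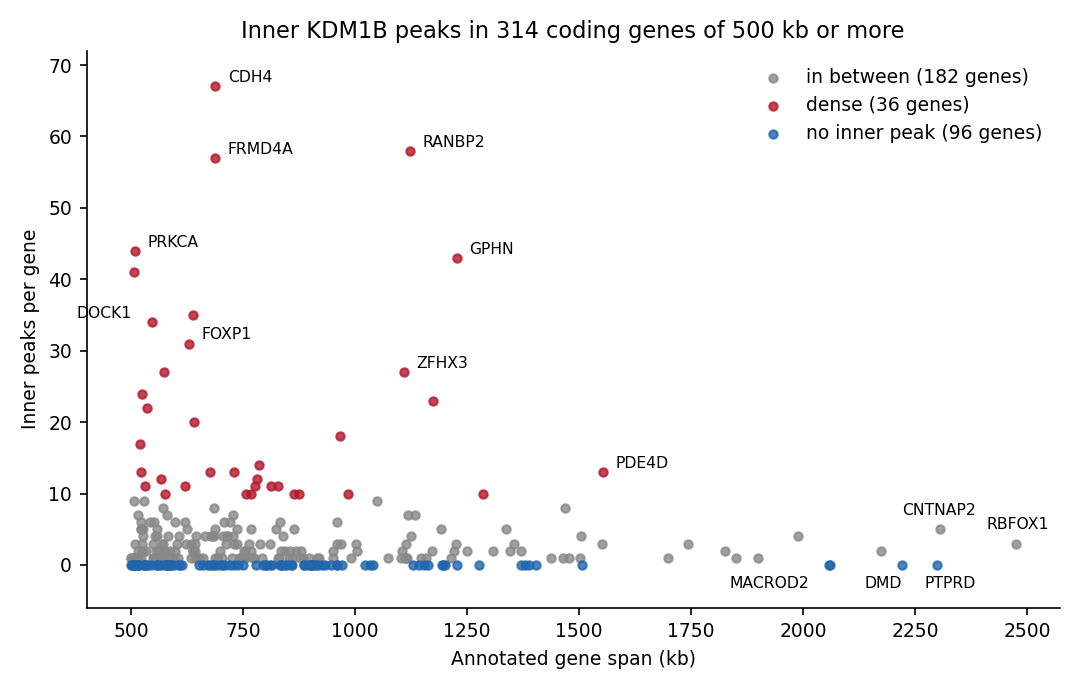
Each point is 1 of the 314 coding genes of 500 kb or more, by its annotated span (kb) and its number of inner peaks. The 36 dense genes are mostly shorter than 1 Mb, with CDH4 highest at 67, whereas RBFOX1, the longest at 2474 kb, holds 3 and PTPRD, DMD and MACROD2 hold none.

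The densest gene was CDH4, which encodes R-cadherin, a calcium-dependent cell adhesion molecule (chromosome 20, 61252261 to 61940617, 688 kb). It held 67 members, 97.6 per Mb, with log2 ratios from 2.05 to 4.72 and a median of 2.69. PRKCA, the gene of protein kinase C alpha (chromosome 17, 66302613 to 66810743), followed with 44 members or 86.9 per Mb and ratios of 2.05 to 4.57. FRMD4A, a FERM-domain scaffold of cell polarity, held 57 members (83.2 per Mb, ratios 2.25 to 5.86). GSE1, a coiled-coil protein found in histone deacetylase complexes, held 41 (81.2 per Mb). All 4 stood above 80 peaks per Mb, a density above the 76.4 of coding genes of 50 to 100 kb.

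The next densest genes had varied roles. DOCK1, an activator of Rac, held 34 members (62.4 per Mb) and AGAP1, a GTPase-activating protein for Arf, 35 (55.1 per Mb). FOXP1, a forkhead transcription factor, held 31 (49.4 per Mb, median log2 ratio 2.85). STARD13, a GTPase-activating protein, held 27 (47.2 per Mb), and its relative DLC1 held 17 (32.7 per Mb) besides the single wider peak of 7.91 kb that the width rule left out. PRKCE, the gene of protein kinase C epsilon, held 22 (41.1 per Mb, ratios 2.11 to 4.99). NAV3, a microtubule-associated protein, held 20 (31.3 per Mb) and its relative NAV2 11 (14.2 per Mb). Other relatives of dense genes held no member, FOXP2 beside FOXP1 and DOCK3 beside DOCK1.

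In some dense genes the members lay mostly in other genes. The annotated spans of RANBP2, GPHN, LRRC37A2 and IQCJ-SCHIP1 contain other coding genes, and 37 of 58, 42 of 43, 12 of 13 and 11 of 11 of their members lay in such a gene or within 1 kb of it. For ANXA8 it was 8 of 24. In 28 of the 36 dense genes no member lay in or near another coding gene. Of all members, 254 (19.7%) lay in or near another coding or lncRNA gene. Such peaks were found in shorter genes as well. Leaving them out lowered the density from 4.94 to 3.95 per Mb in very long genes. At 200 to 500 kb it fell from 16.9 to 14.9, and at 10 to 50 kb from 113.2 to 97.5.

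Very long genes without a member included some of the longest coding genes of the annotation. PTPRD, a receptor-type tyrosine phosphatase (chromosome 9, 2299 kb), DMD, which encodes dystrophin (chromosome X, 2220 kb), CSMD1, a complement-regulating membrane protein (chromosome 8, 2060 kb), and MACROD2, an ADP-ribose hydrolase (chromosome 20, 2058 kb), had none over their whole inner span. Others longer than 1 Mb were DPP10, a modulator of potassium channels, GALNT13, a mucin-type glycosyltransferase, NAALADL2 and LINGO2. UTRN, the gene of utrophin and the paralog of DMD, was by contrast dense, with 12 members over 568 kb and log2 ratios from 2.56 to 4.62. RBFOX1, the longest gene at 2474 kb and a neuronal splicing factor, held 3 members, CNTNAP2, a neurexin-family adhesion molecule of 2304 kb, held 5, and LRP1B, a lipoprotein receptor family member of 1900 kb, held 1. ERBB4, a receptor of the EGFR family, and MECOM, a zinc finger transcription factor, held none, whereas NRG1, a ligand of ERBB4, held 7 with a median ratio of 3.99. LPP, a focal adhesion protein, held 3.

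Lists of genes by function were described by their counts, beside 36 dense and 96 empty genes among all 314 and a median of 1.73 members per Mb. Junction, polarity and cytoskeleton genes had the highest median, 5.68 per Mb, with 4 dense (FRMD4A, NAV3, UTRN and NAV2), 12 in between and 3 empty (among them CTNND2, delta-catenin, and TTC28) of 19 very long genes. Of 11 kinase genes 2 were dense, PRKCA and PRKCE, and 3 empty, among them CDK14 and MAPK10, with a median of 1.75. Of 8 regulators of small GTPases 2 were dense and 3 empty, among them ELMO1, a partner of DOCK1, and ARHGAP6 (median 2.29). Of 24 transcription factor genes 4 were dense and 7 empty, with a median of 1.99. FOXP1, ZFHX3 (27 members, 24.4 per Mb) and KLF12 (11 members, 17.8 per Mb) led, and ZNF804B and AFF2 held none. Of 11 chromatin, RNA and DNA repair genes 4 were dense, including RBFOX3, the lysine methyltransferase gene SMYD3 and RAD51B, a recombination repair gene, each with 10 members, while MACROD2 and AUTS2 were empty (median 2.87).

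Genes with neuronal roles had list medians of 0.874 to 1.79 per Mb, beside 1.73 over all very long genes. Of 34 synaptic adhesion and axon guidance genes 2 were dense, the adhesion molecule genes NTM (18 members) and TENM2 (10), and 9 were empty, with DSCAM and SEMA5A among them, and the median was 1.31 per Mb. Of 21 receptor and scaffold genes of the synapse 1 was dense, SHANK2 with 14 members, and 8 were empty, CHRM3 and RIMS1 included (median 1.79). Of 13 genes listed here under ion channels and their subunits 1 was dense, the calcium-activated potassium channel gene KCNMA1 with 10 members. In that list 6 were empty, FGF12 and RYR3 included (median 0.874). Genes assigned here to common fragile sites, some only as candidates, stood at a median of 0.901, with 2 of 33 dense (FOXP1 and PDE4D) and 12 empty. There, FHIT held 4 members over 1504 kb, WWOX 3 over 1113 kb, and NBEA none.

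The remaining lists were smaller or mixed. Of 9 cadherin genes 2 were dense, CDH4 and CDH13 (23 members, 19.6 per Mb), and 3 empty, including PCDH11X and FAT3, with a median of 1.10. Of 6 receptor-type tyrosine phosphatase genes none was dense and 1 was empty, PTPRD, with PTPRN2 leading at 9 members (median 3.30). Of 5 phosphodiesterase genes PDE4D was dense with 13 members and PDE1C empty (median 1.74). Of 34 trafficking, ubiquitin and other widely expressed genes 3 were dense, GPHN, TRAPPC9 (13 members) and NBAS (12 members), and 12 empty, including SCAPER and the exocyst subunit gene EXOC4, with a median of 1.63. Of 21 extracellular matrix, glypican and ligand genes none was dense and 7 were empty, RELN and SPOCK3 among them (median 1.995). The lists overlap, were not tested and cover 214 of the 314 genes, with 10 dense genes in none of them.

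Members leaned towards the 3′ side of the genes. Strand came from the RefSeq promoter table, which held 262 of the 314 genes. In the 187 of these with a member, 398 of 1093 peaks, 36.4% (Clopper-Pearson 33.6 to 39.3%), lay on the 5′ side of the gene's midpoint. With each gene divided into 10 equal parts, part 10 at the 3′ end held 21.1% of the peaks and part 9 15.2%, against 13.2% in part 1 at the 5′ end and 4.85% in part 5. The same count on the 5′ side was 40.5% (39.7 to 41.3%) in coding genes of 100 to 500 kb and 44.4% (43.5 to 45.3%) in those of 50 to 100 kb. The 3 intervals did not overlap, so the longer the genes, the further the share lay from an even split, but peaks of 1 gene share that gene and the intervals do not allow for it. The value was 38.3% with each very long gene weighted equally, against 44.4% for genes of 100 to 500 kb and 45.5% for genes of 50 to 100 kb weighted the same way, and 34.6% without the 10 densest genes. The table's start lay over 1 kb inside the annotated 5′ end in 84 of the 262 genes, so in those genes the table's transcript starts inside the annotated span.

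**Figure D3:**
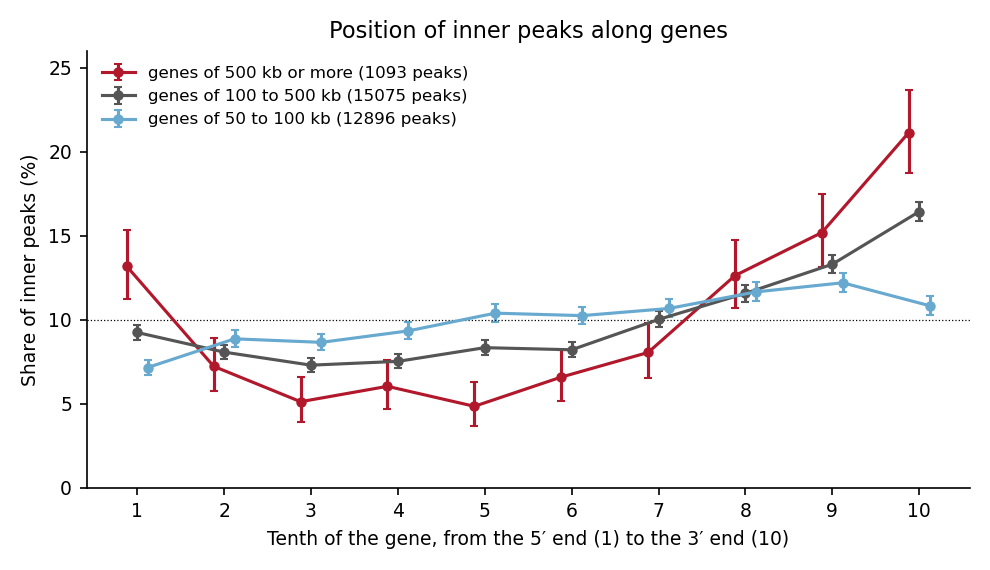
Share of inner peaks (percent, Clopper-Pearson 95% intervals) in each of 10 equal parts of the gene, from the 5′ end (1) to the 3′ end (10), for coding genes of 3 length classes with a known strand. The dotted line marks an even spread of 10% per part, and genes of 500 kb or more show the deepest middle, 4.85% in part 5, and the highest last part, 21.1%.

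Single genes showed the pattern in different forms. Of the 30 dense genes with strand, 19 had more members on the 3′ side, 10 more on the 5′ side and 1 as many on both. In PRKCE all 22 members lay on the 3′ side, the first of them 58.3% of the way along the gene, and 19 lay in the last 20% of the span. STARD13 had 25 of 27 members on the 3′ side and 21 in the last 20%. FOXP1 had 27 of 31 on the 3′ side and 23 in the last 20%, and ZFHX3 26 of 27 and 19. FRMD4A had 50 of 57 on the 3′ side, and PRKCA 34 of 44. The reverse held in CDH4, where 47 of 67 members lay on the 5′ side and 43 in the first 20% of the span, in DOCK1 with 26 of 34 and in UTRN with 10 of 12. These counts refer to annotated spans. The promoter table's start lay 747483 bases inside the annotated 5′ end in ZFHX3, 322374 in FRMD4A and 247160 in CDH4. The 43 members of CDH4 thus lay before that start. In the other genes named so far here the start lay within 1 kb of the annotated 5′ end. Of the 91 genes with 2 to 9 members and a strand, 49 had more on the 3′ side, 28 more on the 5′ side and 14 as many on both.

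Long stretches without a member were found inside dense genes as well. The longest stretch made up 34.3% of the span in the median dense gene, with a range of 13.3% to 68.1%. It was largest, as a share of the span, in IQCJ-SCHIP1 (564 kb), PRKCE (313 kb), RBFOX3 (281 kb, 48.8%), TENM2 (618 kb, 48.1%) and CELF2 (407 kb, 46.6%). In PRKCE, RBFOX3, TENM2 and CELF2 it ran from the annotated 5′ end inwards, so the first member lay near the middle of the gene. PRKCE had in addition a peak within 1 kb of its 5′ end, which is no member. In IQCJ-SCHIP1, whose 11 members lay in or near other coding genes, it separated 6 members on the 5′ side from 5 on the 3′ side.

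**Figure D4:**
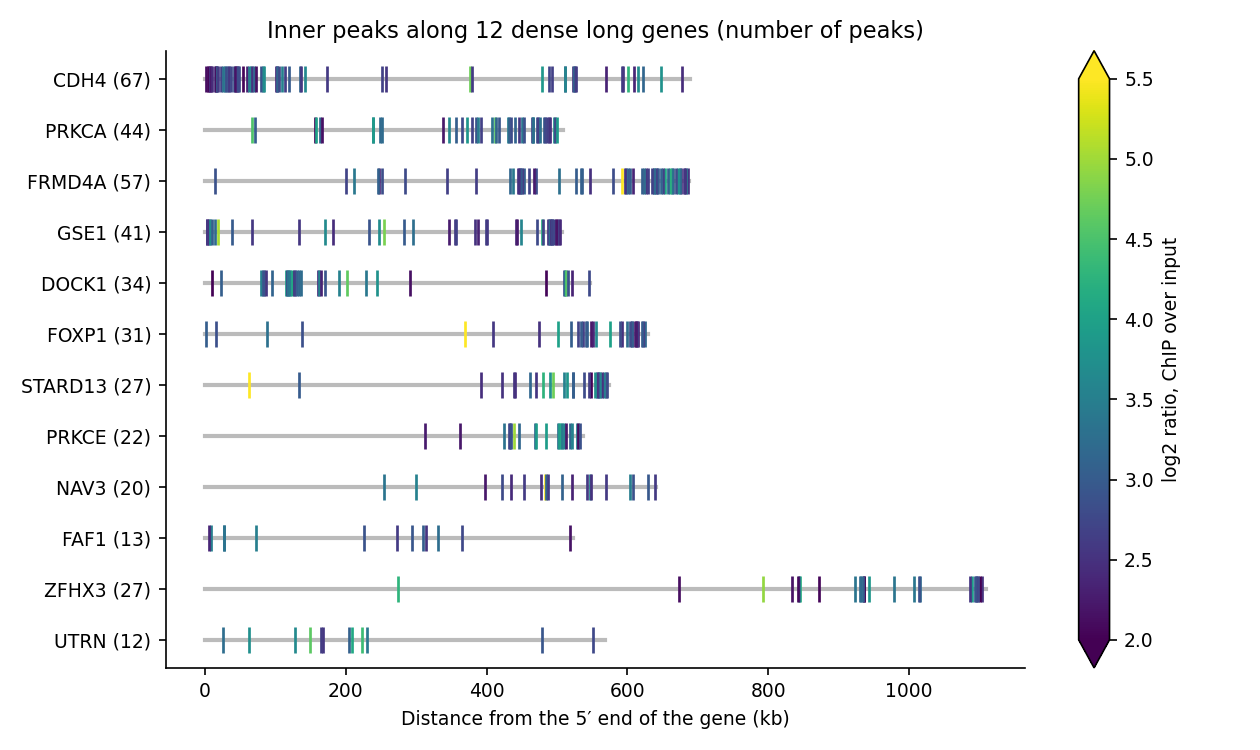
Each line is 1 dense gene drawn from its 5′ end (distance in kb), each tick an inner peak coloured by its log2 ratio of ChIP over input, and the number of peaks stands beside the name. The 12 densest genes with a known strand and most members outside other coding genes are shown. Ticks crowd at the 3′ end of FRMD4A, FOXP1, STARD13, PRKCE and ZFHX3 and at the 5′ end of CDH4. Lines are annotated spans, and in CDH4, FRMD4A, GSE1, NAV3 and ZFHX3 the promoter table's start lies over 1 kb inside the 5′ end.

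The start of the gene carried a peak more often than its end. A listed peak lay within 1 kb of the annotated 5′ end in 57 of 262 very long genes with strand, 21.8% (16.9 to 27.2%), against 36.5% of all coding genes with strand. At the 3′ end it was 8 of 262, 3.05% (1.33 to 5.93%), against 17.4%. A peak there is no member of that gene, since members lay over 1 kb inside. The 5′ end was marked in 12 of 30 dense genes (40%, 22.7 to 59.4%), in 36 of 157 genes in between (22.9%, 16.6 to 30.3%) and in 9 of 75 empty genes (12%, 5.64 to 21.6%). Counting either end, 14 of 36 dense, 45 of 182 intermediate and 11 of 96 empty genes had a peak there, against 41.9% of all coding genes. The 11 empty genes with a peak at an end but none inside included the transcription factor genes SOX5 and MECOM, the mitochondrial peptidase gene IMMP2L, PCDH9, CDK14 and TTC28.

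Peaks outside the gene were compared over the 500 kb on each side. The flanks of dense genes held 39.3 peaks per Mb (37.3 to 41.4), those of intermediate genes 22.4 (21.7 to 23.1) and those of empty genes 11.03 (10.4 to 11.7), so the flanks stood in the same order as the genes. Pooled, the dense genes held 28.9 inner peaks per Mb (26.9 to 30.9), fewer than their flanks. The inner density exceeded that of the flanks in 21 of the 36 dense genes, which were selected for a high inner density. Over all 314 very long genes the flanks were denser than the gene in 243 (77.4%). FOXP1, with 31 members, had 2 peaks in its 2 flanks together. NAV3 had 3 against 20 members, DLC1 2 against 17, DOCK1 10 against 34 and PRKCA 16 against 44. CDH4, by contrast, had 92 flank peaks, 82 of them on the side of its 3′ end, and RAD51B 97 against 10 members. Of the 96 empty genes, 81 had a flank peak, among them MACROD2 with 29, all on the lower-coordinate side, and 15 had none, PTPRD and ERBB4 among them.

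Outside the ends the density varied from step to step. In the 50 kb before the 5′ end of the 75 empty genes with strand it was 4.27 per Mb (2.44 to 6.93), the lowest of the 10 steps out to 500 kb. The other 9 ranged from 6.13 to 19.2, and the interval overlapped that of the next step (3.89 to 9.20). In the first 50 kb beyond their 3′ end it was 9.87, and the other 9 steps ranged from 7.73 to 21.1, so no such minimum stood next to the 3′ end of empty genes. In the 157 intermediate genes with strand the step next to the gene was the lowest at both ends. It held 15.2 per Mb (12.6 to 18.1) before the 5′ end and 16.1 (13.4 to 19.1) beyond the 3′ end. In the 30 dense genes with strand the last 50 kb before the 3′ end held 88.7 peaks per Mb (74.2 to 105) and the first 50 kb beyond it 46.7 (36.4 to 59.0). The inner values follow from how the groups were formed. The outer ones are not wholly independent of it, since some flanks reach into a neighbouring very long gene, as those of GPHN and RAD51B do into each other.

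**Figure D5:**
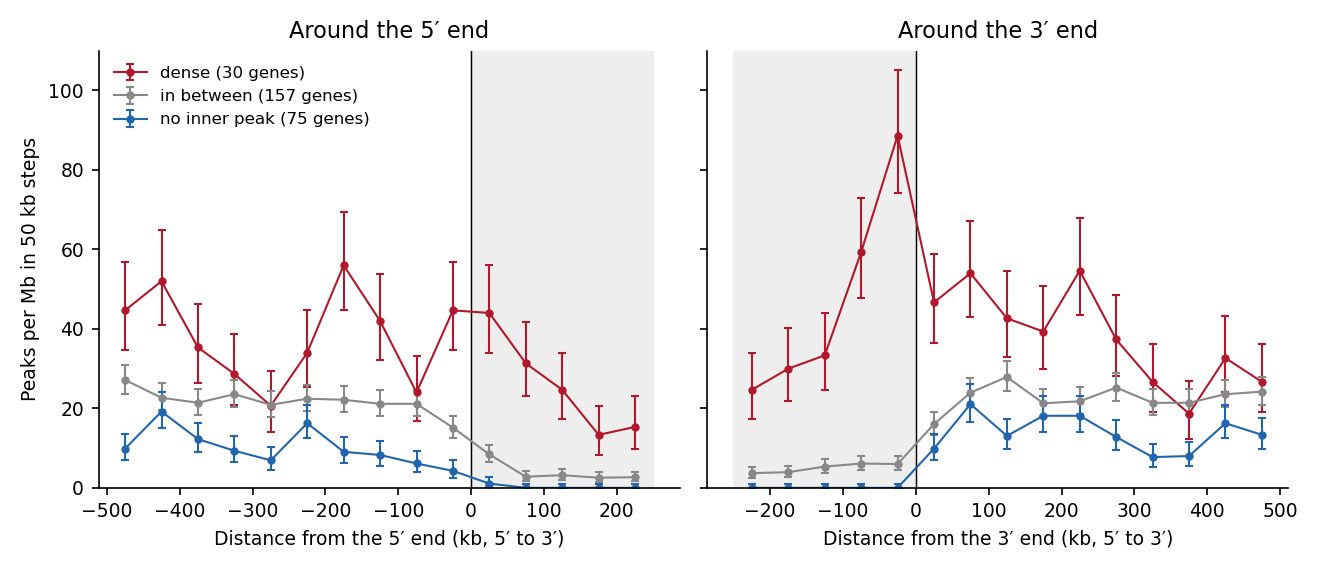
Peaks per Mb in steps of 50 kb (exact Poisson 95% intervals) around the 5′ end (left) and the 3′ end (right) of very long genes with strand, by group, with the gene body shaded. Dense genes reach 88.7 per Mb in the last 50 kb of the gene, and the flanks of empty genes stay below those of intermediate genes in every step.

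Gene density and promoter composition were read beside the groups. The number of other coding genes within 500 kb had a median of 7 in dense, 5 in intermediate and 4 in empty genes. Median spans were 710, 710 and 788 kb. Across the 314 genes density had a Spearman correlation of 0.40 with the density of the flanks, 0.28 with the number of nearby coding genes and -0.21 with the span, given as descriptions, since neighbouring genes share flanks and all come from 1 list. For promoters the correlation across 262 genes was -0.02 with GC content and 0.03 with the ratio of observed to expected CpG. That CpG ratio had a median of 0.629 in dense, 0.708 in intermediate and 0.674 in empty genes, and 0.763 over all 15813 coding promoters of the table. The motif GGGCGG, searched on both strands in the 300 bases from 250 before to 50 after the start, was found in 12 of 30 dense (40%) and 41 of 75 empty genes (54.7%), against 58.5% of all coding promoters. TATAAA was found in 4 of 30 and 4 of 75, against 9.64%, and the letters of the 2 motifs do not allow them to overlap. A match is a string of letters and not a shown binding site.

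Density also differed between chromosomes. On all 22 chromosomes with a very long gene (19 has none) it was below that of coding genes of 10 to 500 kb on the same chromosome. It was highest on chromosome 17, at 15.3 per Mb against 104.7 in the shorter genes, then on 16 (13.5 against 98.7) and 20 (12.7 against 104.2). The X chromosome had 0.379 against 20.6, with 4 members over 11 genes, 2 in IL1RAPL1 and 1 each in TENM1 and DIAPH2. Chromosome 7 held 26 very long genes, none dense and 14 empty, at 1.35 against 41.1 per Mb.

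Member peaks were narrower, further apart and of slightly higher ratio than inner peaks of coding genes of 10 to 500 kb pooled. Peaks of genes of 200 to 500 kb stood nearer to the members. Their median width was 670 bp (quartiles 543.5 and 877) against 826 bp in coding genes of 10 to 500 kb, and 14.0% had the smallest width of the list, 500 bp, against 7.71%. Neighbouring members of 1 gene lay a median of 11.5 kb apart, against 2.70 kb. The median log2 ratio was 3.13 (quartiles 2.67 and 3.72, range 1.62 to 6.10) against 2.99. A ratio above 4 was found in 254 members, 19.7% (17.6 to 22.02%), against 12.2% (11.9 to 12.5%) in genes of 10 to 500 kb and 12.7% of all listed peaks. In genes of 200 to 500 kb the median width was 718 bp, the spacing 4.78 kb and the median ratio 3.08. There, 11.1% of the peaks had 500 bp and 17.6% (16.6 to 18.7%) a ratio above 4, an interval that overlapped that of the members. Turned back from log2, nearly all of the highest ratios of the list were whole multiples of a step of 2.64. Ratios of scaled whole read counts would give such a step, which was not tested for the rest of the list. Of the members 18.0% stood at a whole multiple of that step, against 12.4% of all peaks. In ratios of scaled counts, an input count of 1 would always give such a multiple. The step was chosen to fit the highest ratios of the list, so this share is not independent of the ratio. Without such peaks the medians were 2.97 in very long and 2.91 in shorter genes, with widths of 717 and 860 bp.

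Ratios were higher where members were few. The groups were formed from the peaks themselves, so this is a description, and the part of the whole multiples in it was not tested. In dense genes the 803 members had a median log2 ratio of 2.99, 10.7% above 4 and a median spacing of 6.29 kb. In genes with 1 to 9 members the 489 peaks, some of which also lie in a dense gene, had a median of 3.50, 34.4% above 4 (30.2 to 38.8%) and a spacing of 71.2 kb, and 29.7% of them stood at whole multiples of the step against 10.96% in dense genes. The strongest member lay in RAD51B with a log2 ratio of 6.10 (chr14:68249659-68250506). KCNMA1 (chr10:77276586-77277464), SOX6 (chr11:16623876-16624760) and PLXNA4, a semaphorin receptor gene (chr7:132249293-132250255), each had a member at 6.05. MYO16, a myosin gene, and STXBP5L followed at 5.93. All 10 highest members stood at whole multiples of the step, which largely follows from how the step was chosen. The read counts behind them are unknown.

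At the limits of the rule, the shortest gene included was AFF2 at 500.05 kb with no member, and the longest left out was DIAPH3 at 498.3 kb with 10 inner peaks. The widest member, 4802 bp, lay in CDH4 with a log2 ratio of 2.77, and the peak of 7910 bp in DLC1, the only one left out by width, had 3.68. The members nearest to and the peaks just past the limit of 1 kb from the gene end lay 1070.5 bp inside VPS13B (2.32) and 990 bp inside PARD3 (2.73), and 35 narrow peaks lay inside very long genes within 1 kb of their ends.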

How the data were processed

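ChIP and input DNA of 1 library each were sequenced by the authors. The submitters' processing notes name Trim Galore 0.4.5, Bowtie2 2.2.9 and the build hg38. Caller, thresholds and scaling were not given in the sources used here. The deposited value per peak is a log2 ratio of ChIP over input by the authors, and depth is unknown. That it is a log2 value was settled from the step among its highest linear values. Coordinates are printed as deposited.

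Coding genes, spans and promoters came from RefSeq GRCh38.p14, and strand from its promoter table. Peaks were placed by midpoint with Python 3.11.15, pandas 2.3.3 and scipy 1.17.1. Shares carry exact Clopper-Pearson and densities exact Poisson intervals, and no test was run for want of replicates. Peaks inside several genes counted in each density. The step was the most frequent linear ratio divided by 3, chosen so that nearly all of the highest ratios of the list were whole multiples. A whole multiple of the step was accepted within a relative tolerance of 1e-06. Placement was tested on simulated data.

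Members and gene lists were chosen with earlier results of these data known. Genes were named by rule: the 10 densest, the 10 longest without members, the genes of the 5 strongest members, up to 3 highest and 2 lowest of each list, the 5 dense genes with the largest member-free share, and 16 chosen by name. Some genes these rules name are not reported here. Other named genes were chosen after their values were seen. The 9 alternatives set in the design and others added after seeing the data are in the closing section. Exons, introns and peak sequences were not used here.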

Additional observations from a re-analysis of the deposited data

How the results depend on the processing

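Across 71 recomputed values, 47 stayed within the 95% counting interval of the reported value (for the number of dense genes, within 1.5 times it) and 24 moved out of it. The fall of density with gene length from 10 kb held in the 7 alternatives that could change it. With very long genes counted from 400 kb, members made up 2.62% of the list at 6.13 per Mb with 55 dense genes, and from 1 Mb 0.367% at 3.01 per Mb with 6 dense genes, a median width of 690.5 bp and 32.9% of peaks on the 5′ side. Joining peaks within 1 kb gave 2.08% of the joined list, 4.25 per Mb and a median log2 ratio of 3.26. The stronger part of the list gave 1.91%, 2.87 per Mb, 15 dense genes, a median ratio of 3.64 and a width of 594 bp, which follows from its construction for density and ratio. Leaving out peaks in or near other genes gave 1.32% and 3.95 per Mb. Without whole multiples of the step the values were 1.53%, 4.05 per Mb, 40.4% of genes without a member, a median ratio of 2.97 and a width of 717 bp. Without the 4 dense genes whose members lay mostly in other coding genes, an alternative chosen after seeing the data, density was 4.53 per Mb. The share on the 5′ side was 37.7% without FRMD4A and 34.2% without CDH4, both also added later. Peaks of any width, 5 kb from gene ends and any overlap of 1 bp moved no value out of its interval. With 1 library per group, no replicate could be left out, and without read counts the depth behind a gene without peaks is unknown. No paired analysis was possible because each group holds 1 library.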
